A study of Mus musculus with 6 samples.

Results

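The AP-1 family of transcription factors was followed in differentiating DM1 myoblasts with and without miR-322/-503 overexpression. Its 10 genes, Fos, Fosb, Fosl1, Fosl2, Jun, Junb, Jund, Atf3, Batf3 and Jdp2, were taken by gene symbol out of the 55421 genes of the deposited table. Fos, Fosb, Fosl1 and Fosl2 form the Fos group, Jun, Junb and Jund form the Jun group, and Atf3, Batf3 and Jdp2 encode related dimer partners.

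AP-1 is a dimer of basic leucine zipper (bZIP) proteins that binds a short palindromic DNA element. Jun proteins pair with one another or with a Fos partner, whereas Fos proteins bind DNA stably with a Jun partner. Fos, Fosb, Jun and Junb are classical immediate-early genes, which serum, stress and cytokines such as TNF induce through MAP kinases, and Fos and Jun are known to oppose the myogenic factor MyoD in proliferating myoblasts.

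All 6 libraries came from C2C12 cells, mouse myoblasts that can be grown as a line and that form multinucleate myotubes when serum is reduced. The cells stably carried a plasmid with 200 CTG repeats behind the GFP coding sequence (CUG200), a model of the muscle disease myotonic dystrophy (DM1), and were lysed on day 4 of differentiation. The control group (CUG200-ctrl, 3 libraries) had the empty pLL4.0 vector, and the miR-322/-503 group (CUG200-m, 3 libraries) had the same vector with the microRNA cluster. The labels give each group a cell line name of its own, and the methods describe stable lines made by drug selection, so a difference between the lines and an effect of the microRNAs cannot be told apart. The methods speak of biological and technical replicates for the assays in general, but no label ties the libraries of a group to separate cultures, and p-values therefore measure the spread between these libraries, which may be technical.

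The libraries held 73532084 to 92157388 estimated counts, with about 4 counts per read pair. All 12 myoblast and myotube markers examined reached 1 TPM (a level corrected for transcript length and library size) in at least 1 library, and their summed level was 3751 to 4127 TPM in the control and 4638 to 4832 TPM in the miR-322/-503 libraries. All 6 leukocyte, 4 adipocyte and 4 neural markers stayed under 1 TPM in every library, with 3, 3 and 1 of them at 0 throughout. Of the 4 endothelial markers Tek alone reached 1 TPM (list sum 0.423 to 0.524 TPM in the control and 1.58 to 2.35 TPM with the microRNAs), and of the 4 epithelial markers Krt14 alone (44.5 to 51.6 and 13.4 to 18.6 TPM), while 1 epithelial marker was at 0 throughout. The part of these shifts in the results that follow was not tested. Tek itself starts 310 kb from Jun (log2 fold change 1.90) and is among the genes compared with Jun below. Overexpression could not be checked in these libraries, since Mir322 had 0 to 17 and Mir503 had 1 to 6 estimated counts, against a floor of 12 counts (3 read pairs).

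The mature microRNAs are shown because their seeds, bases 2 to 8 from the 5′ end and printed in capitals, set which transcripts they can pair with. RefSeq places them on the minus strand of chromosome X (GRCm38.p6), miR-322-5p at chrX:53054306-53054327 and miR-503-5p at chrX:53054027-53054049.
mmu-miR-322-5p: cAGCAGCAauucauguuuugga
mmu-miR-503-5p: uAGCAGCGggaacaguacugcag
The seeds share bases 2 to 7 and differ at base 8. The DNA letters that pair with bases 2 to 8 are TGCTGCT for miR-322-5p and CGCTGCT for miR-503-5p, and a run of CTG repeats holds the former and not the latter.

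Within the AP-1 family, the transcripts of Fos, Fosb and Junb fell steeply with miR-322/-503, Jun, Fosl1 and Atf3 rose modestly, and Fosl2, Jund and Jdp2 did not pass the test. Of the 10 genes, 9 passed the filter on low counts and were tested (edgeR quasi-likelihood test, Benjamini-Hochberg adjustment over 18140 genes). Batf3, whose protein pairs with Jun in lymphoid and dendritic cells, had no count in 5 libraries and 4 estimated counts in miR-322/-503 replicate 3. At an adjusted p under 0.05, 3 of the 9 genes were lower, against 15.5% of all tested genes, and 3 were higher, against 13.2%, or 6 of 9 in either direction against 28.8%. All 3 that fell also passed a log2 fold change of 1 (5.29% of all tested genes, and 9.87% in either direction), whereas none of the 3 that rose did (4.59%). The groups did not overlap for 4 genes that were lower (23.5% of all tested genes) and 4 that were higher (21.6%), together 8 of 9 against 45.1%. The median log2 fold change of the 9 genes was 0.15, against -0.01 over all tested genes, so the family as a whole had no common direction.

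**Figure D1:**
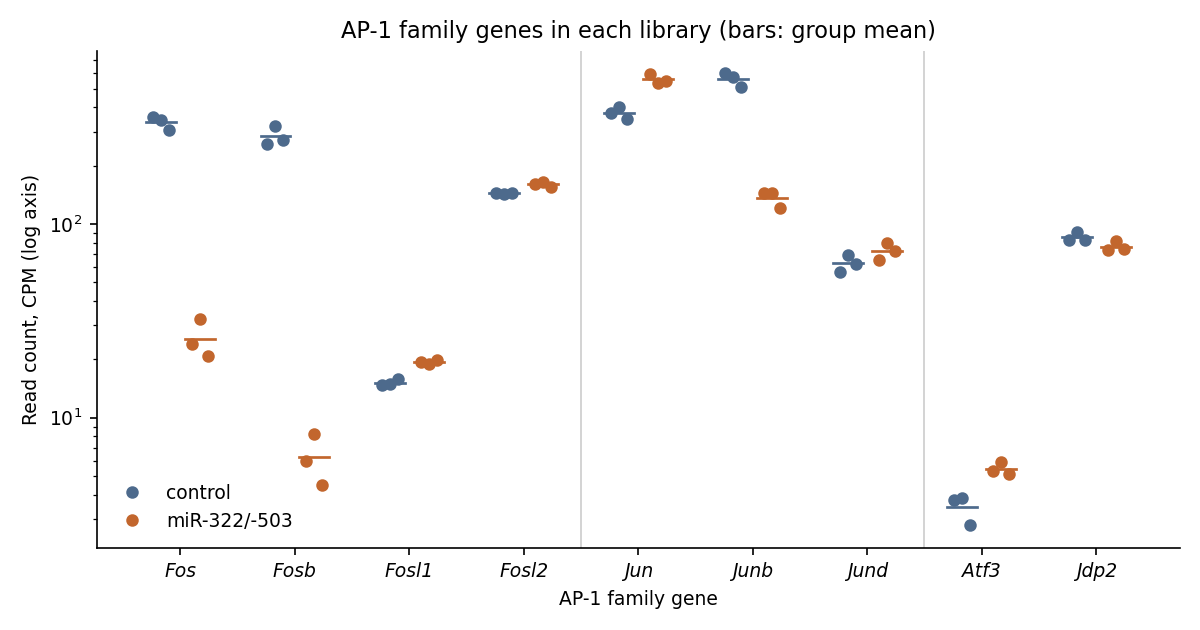
Read counts in CPM (counts scaled to library size, log axis) of the 9 AP-1 family genes that were tested, with 1 point per library and a bar at the mean of each group of 3. Fos, Fosb and Junb lie far lower in the miR-322/-503 libraries, Jun lies higher, and the points of Jund overlap.

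Fos, the founding member and the main partner of Jun after serum stimulation, lies at chr12:85473890-85477273 on the plus strand (GRCm38). It had 359, 346 and 307 CPM (counts scaled to library size) in control replicates 1 to 3 and 23.9, 32.1 and 20.8 CPM in miR-322/-503 replicates 1 to 3. Every miR-322/-503 library was far under every control library. Fos was 13.2-fold lower, with a log2 fold change of -3.72 ± 0.17 (SE, 95% interval -4.12 to -3.32, adjusted p = 7.99e-06), and 168 of the 18140 tested genes had a lower log2 fold change. As these were bulk libraries, fewer cells with the transcript and less transcript per cell cannot be told apart.

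Fosb, which also gives rise to the truncated and long-lived deltaFosB protein in other tissues, lies at chr7:19302696-19310051 on the minus strand. Its counts were 259, 320 and 273 CPM in the control and 5.96, 8.24 and 4.49 CPM with miR-322/-503. This was the steepest fall in the family, again without overlap. The log2 fold change was -5.51 ± 0.24 (SE, 95% interval -6.07 to -4.95, adjusted p = 5.95e-06), a 45.6-fold difference that 71 of all tested genes exceeded downwards. Within the miR-322/-503 group, replicate 2 was the highest and replicate 3 the lowest library for both Fos and Fosb.

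Fosl1 (Fra-1) and Fosl2 (Fra-2) encode Fos proteins that lack the strong activation domain of Fos, and neither fell. Fosl1 (chr19:5447547-5455946, plus strand) had 14.8, 14.9 and 15.8 CPM in the control and 19.4, 18.95 and 19.95 CPM with miR-322/-503. All 3 miR-322/-503 libraries were higher, by a log2 fold change of 0.36 ± 0.08 (SE, adjusted p = 0.0118). Fosl2 (chr5:32135801-32157842, plus strand) had 144, 143 and 145 CPM in the control and 161, 165 and 155 CPM with miR-322/-503. The groups of Fosl2 did not overlap either, yet the difference of 0.15 ± 0.05 on the log2 scale (95% interval 0.03 to 0.28) did not pass the test (adjusted p = 0.0685).

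Fosl2 was the only 1 of the 10 genes whose longest annotated 3′ untranslated region (GENCODE M21) held the letters that pair with bases 2 to 8 of either microRNA. It had 3 matches for miR-322-5p and 1 for miR-503-5p in 4653 bases. Over 13487 tested genes with such a region (median 1343 bases), 27.0% held a match for miR-322-5p and 5.72% for miR-503-5p. The matches, in capitals within 27 bases of the plus strand (GRCm38), are shown because they are the only such letters in the family and stand beside a transcript that was not lower.
Fosl2, miR-503-5p, chr5:32154171-32154197: ctcagctgggCGCTGCTcatccccaac
Fosl2, miR-322-5p, chr5:32154954-32154980: gctctaactcTGCTGCTctggtctccc
Fosl2, miR-322-5p, chr5:32155874-32155900: gagctcagacTGCTGCTttcataggca
Fosl2, miR-322-5p, chr5:32157689-32157715: ggtaggagctTGCTGCTatggaggaaa
A match is a description of letters and not a site shown to be used. Fos, Fosb and Junb held no such match in 815, 2302 and 485 bases, nor the 6 letters GCTGCT that pair with the bases shared by both seeds. These 6 letters were held by 49.3% of the 13487 genes, and in the family by Fosl2 (5 times) and Fosl1 (2 times), while the other 8 genes had none.

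In the Jun group, Jun and Junb moved in opposite directions. Junb, which pairs with Fos proteins but activates many promoters less than Jun does, lies at chr8:84974484-84978718 on the minus strand. It had 600, 577 and 511 CPM in the control and 145, 144 and 121 CPM with miR-322/-503. All miR-322/-503 libraries were lower, 4.11-fold on average, with a log2 fold change of -2.04 ± 0.10 (SE, 95% interval -2.27 to -1.81, adjusted p = 1.01e-05).

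Jun, the strongest activator of the group and a target of JNK kinases, lies at chr4:95049034-95052222 on the minus strand. It had 376, 403 and 347 CPM in the control and 597, 533 and 547 CPM with miR-322/-503. The lowest miR-322/-503 library was above the highest control library, and the rise was 1.49-fold (log2 fold change 0.57 ± 0.08 SE, 95% interval 0.39 to 0.75, adjusted p = 0.00126). Jund, which is often present in resting cells, lies at chr8:70698949-70700616 on the plus strand and had 56.6, 68.9 and 62.2 CPM in the control and 65.02, 79.9 and 72.2 CPM with miR-322/-503. The groups of Jund overlapped, and its log2 difference of 0.21 ± 0.10 (95% interval -0.02 to 0.44) did not pass the test (adjusted p = 0.163).

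Among the related partners, Atf3 and Jdp2 encode proteins that repress as homodimers, and both moved by far less than the 3 genes that fell. Atf3, a stress-induced gene at chr1:191170296-191218039 (minus strand), had 3.75, 3.84 and 2.78 CPM in the control and 5.29, 5.91 and 5.13 CPM with miR-322/-503. The counts were low and did not overlap, and the rise was 1.57-fold (log2 fold change 0.65 ± 0.16 SE, adjusted p = 0.0211). It did not pass without miR-322/-503 replicate 2 (log2 fold change 0.59, adjusted p = 0.0705). Jdp2, at chr12:85599027-85639878 on the plus strand, had 83.1, 91.3 and 82.4 CPM in the control and 73.04, 81.9 and 74.4 CPM with miR-322/-503. Its libraries did not overlap, but the log2 difference of -0.16 ± 0.07 (95% interval -0.33 to -0.00) did not pass the test (adjusted p = 0.125).

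**Figure D2:**
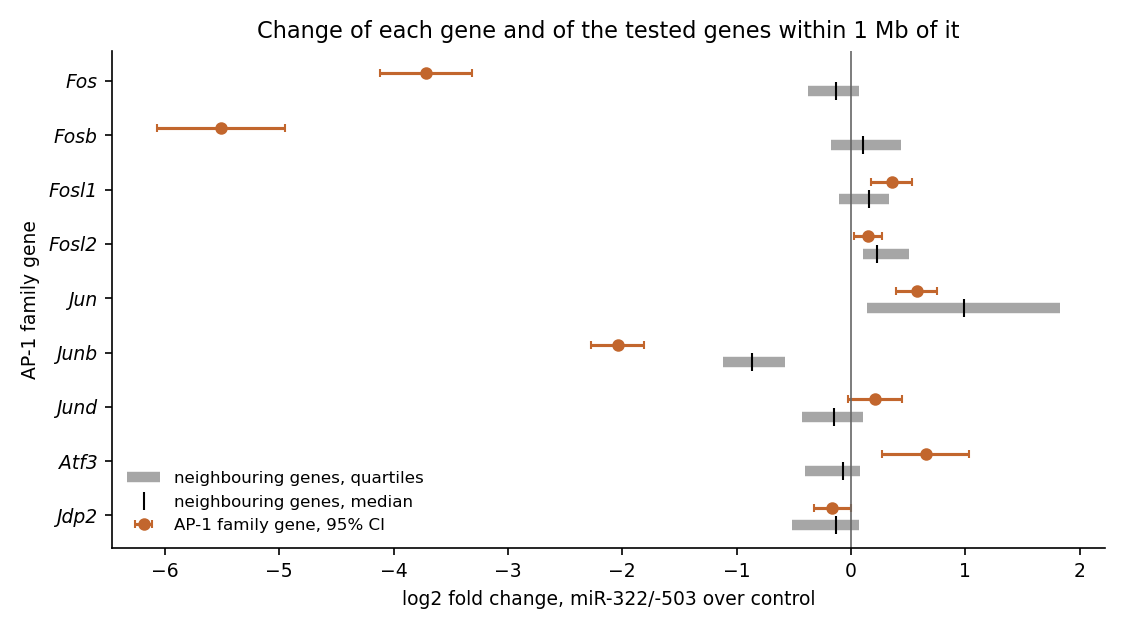
Log2 fold change of miR-322/-503 over control for each of the 9 tested AP-1 family genes (orange points, 95% interval) and, beneath each, the median (black tick) and quartiles (grey bar) of the tested genes that start within 1 Mb of it. Fos and Fosb stand apart from genes near 0, Junb lies below neighbours that were themselves lower, and Jun lies below the median of neighbours that were higher.

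The genes around each member were compared with it, because the log2 fold changes around Jun, Junb and Fosl2 were largely of the same sign. Many of the neighbours of Fosl2 did not pass the test. Of the 34 tested genes that start within 1 Mb of Fos, the median log2 fold change was -0.13 and none was lower than Fos. Around Fosb the median of 54 genes was 0.11, and 1 gene was lower than Fosb. Neither fall was shared by the surrounding genes as a group. Junb had 67 tested neighbours with a median log2 fold change of -0.86, of which 59 were below 0 and 7 were lower than Junb, so that Junb was 1.18 below the median of its surroundings. Jun had 17 tested neighbours with a median of 0.99, and 12 of them were above Jun. Thus the log2 fold change of Jun was smaller than that of most tested genes beside it, whereas that of Junb was larger in size. Fosl2 had 38 tested neighbours with a median of 0.23, of which 6 were below 0 and 23 were above Fosl2. Neighbours were counted by the sign of the change and not by the test, which Fosl2 itself did not pass. Any part of a regional shift in the values of Jun, Junb and Fosl2 was not tested. Atf3 was above 22 of its 24 neighbours (median -0.07), and the medians around Fosl1, Jund and Jdp2 lay between -0.15 and 0.16.

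Fos and Jdp2 start 125.1 kb apart on chromosome 12, and Atf3 and Batf3 start 72.4 kb apart on chromosome 1. The log2 fold changes were -3.72 for Fos and -0.16 for Jdp2, both below 0. Atf3 was counted in every library while Batf3 was at 0 in 5 of 6.

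Several members share exon bases with a gene on the opposite strand, and no source used here says whether counting used the strand, so reads in the shared bases cannot be assigned with certainty. Jun shares 232 bases with the antisense gene Junos, which rose from 2.21 to 4.36 CPM (log2 fold change 0.98, adjusted p = 0.0121). Junb shares 173 bases with Prdx2, a peroxiredoxin gene that fell from 414 to 255 CPM (-0.70 on the log2 scale, adjusted p = 0.00151). Both partners moved as the member did. Fosl1 shares 1163 of its 2033 exon bases with Ccdc85b, which was at 31.2 ± 2.47 and 28.4 ± 11.7 CPM (SD, n = 3). Ccdc85b did not pass the test (log2 fold change -0.13, adjusted p = 0.789), and Fosl1 had means of 15.2 and 19.4 CPM. Jund shares 877 bases with Gm11175, which was not tested, and Jdp2 shares 165 bases with Gm47863 (log2 difference 0.02, adjusted p = 0.967).

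Levels of different genes were compared in TPM, which corrects for transcript length. In the control, the order from the highest was Junb (591 ± 52.8 TPM, SD, n = 3), Fos (362 ± 26.3), Jun (224 ± 16.9), Fosb (146 ± 15.1), Jdp2 (99.2 ± 5.30), Jund (71.2 ± 6.40), Fosl2 (43.3 ± 0.343), Fosl1 (16.6 ± 0.663) and Atf3 (3.31 ± 0.580), and no neighbours in this order overlapped. With miR-322/-503 the order became Jun (329 ± 27.7 TPM), Junb (142 ± 19.6), Jdp2 (87.4 ± 7.39), Jund (81.4 ± 9.10), Fosl2 (47.3 ± 3.36), Fos (34.1 ± 8.60), Fosl1 (20.3 ± 1.01), Atf3 (5.27 ± 0.557) and Fosb (3.22 ± 1.07). Here Jdp2 and Jund overlapped, as did Fosl2 and Fos. Fosb moved from the fourth place to under Atf3, and Jun took the first place from Junb. With CPM per kilobase of annotated exon in place of TPM, Jdp2 overlapped with Fosb and with Jund in the control, while Fosb and Jund did not overlap. With miR-322/-503 on that scale, Jund lay above Jdp2 and Fosl2 above Fos, both without overlap, and Fos and Fosl1 overlapped.

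**Figure D3:**
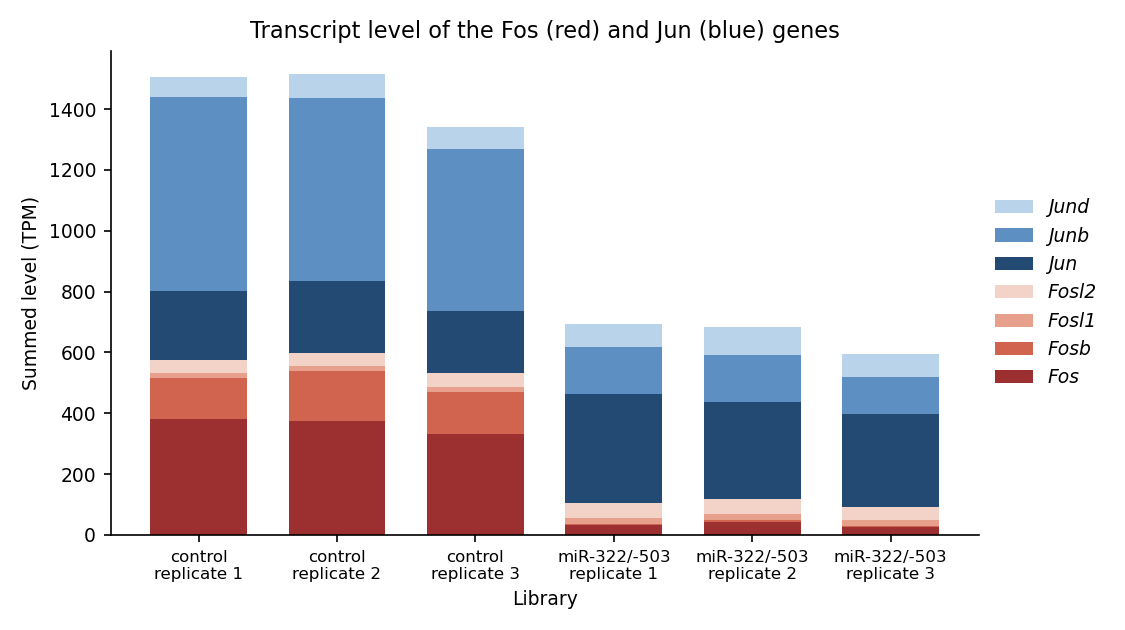
Summed level in TPM of the 4 Fos genes (red shades) and 3 Jun genes (blue shades) in each of the 6 libraries, stacked as bars that start at 0. The stacks are lower in the miR-322/-503 libraries, where Fos, Fosb and Junb take a smaller part and Jun the largest.

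The pool of Fos and Jun transcripts thus changed in size and in make-up. The 7 genes summed to 1454 ± 98.4 TPM in the control and 658 ± 53.5 TPM with miR-322/-503 (SD, n = 3), and no library of one group reached the range of the other. The Fos group fell from 568 ± 33.6 to 105 ± 12.9 TPM and the Jun group from 886 ± 66.5 to 553 ± 44.1 TPM. These sums are given without a test. As a share of the 7 genes, the Fos group went from 39.1% ± 0.711 to 16.0% ± 1.20, and the Jun transcripts per Fos-group transcript, summed over each group, went from 1.56 ± 0.0470 to 5.29 ± 0.457.

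Within the Fos group, Fos made up 63.7% ± 1.91 and Fosb 25.7% ± 1.93 of the TPM in the control. With miR-322/-503, Fosl2 was the largest part at 45.3% ± 2.55, followed by Fos at 32.2% ± 4.2, Fosl1 at 19.5% ± 2.23 and Fosb at 3.01% ± 0.641. The larger shares of Fosl2 and Fosl1 came with log2 fold changes of 0.15 and 0.36. Within the Jun group, Junb held 66.7% ± 1.66 in the control and 25.7% ± 1.71 with miR-322/-503, and Jun went from 25.3% ± 0.800 to 59.5% ± 2.47. The control thus had 2.64 ± 0.150 Junb transcripts per Jun transcript, and the miR-322/-503 group had 2.33 ± 0.234 Jun transcripts per Junb transcript.

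The promoters of the 3 genes that fell are shown because each holds TGACG, the first part of the cyclic AMP response element (CRE) to which ATF and CREB proteins bind. RefSeq promoters (GRCm38.p6, 250 bases before to 50 after the gene start) were found for 9 of the 10 genes, with 3 starts for Jdp2 and no entry for Fosl1. The RefSeq start was that of the GENCODE M21 gene for Fos and Jun and lay 6 bases inside it for Fosb, but 30 bases before it for Junb, 1210 bases before it for Jund and 671 bases to 34.7 kb inside the gene for Fosl2 and Atf3, and matches hold for these windows only. The stretches are written on the strand of the gene with the match in capitals.
Fos, 129 bases before the start, chr12:85473748-85473777: tggggcgtagagtTGACGacagagcgcccg
Fos, 66 bases before the start, chr12:85473811-85473840: cagttccgcccagTGACGtaggaagtccat
Fosb, 60 bases before the start, chr7:19310089-19310118: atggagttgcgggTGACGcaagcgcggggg
Junb, 106 bases before the start, chr8:84978838-84978867: cgcttcctgacagTGACGcgagccgcctcc
On either strand, TGACG was held by 20.8% of all 32851 promoters of this length. Atf3 and 1 of the 3 Jdp2 promoters also held it, and those of Fosl2, Jun, Jund and Batf3 did not. Fos and Junb held a TATAAA (13.6% of all promoters), which began 33 bases before the RefSeq start of Fos and at that of Junb. Measured to the GENCODE start, the last base of the match lay 28 bases before it for Fos and 25 for Junb. None of the 9 genes had within these windows the AP-1 element TGACTCA (5.20% of all promoters) or the CArG box of serum response factor (1.63%). The full palindromic CRE, which contains TGACG on both strands, was also absent (1.79% of all promoters). Bases more than 250 before the start were not searched, so a serum response element there would have been missed. GGAAG, the core bound by Ets factors, was present in every gene with a promoter except Jun, and in 71.4% of all promoters.

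Genes around the AP-1 family in its pathway were counted from 5 lists, read beside the 13.2% of all tested genes that were higher and the 15.5% that were lower. Other bZIP genes, whose products pair with Fos or Jun or compete for related elements, had 22 of 25 tested, with 7 higher (31.8%) and 5 lower (22.7%), and a median log2 fold change of 0.09. Maf, a large Maf factor, rose from 7.90 to 23.0 CPM (log2 fold change 1.54 ± 0.13 SE, adjusted p = 0.000154), and the clock-controlled Dbp rose by 0.76 ± 0.09. Bach2 rose by 1.44 ± 0.37 (adjusted p = 0.0245) from counts near 1 CPM, and did not pass without any 1 library other than miR-322/-503 replicate 1 (adjusted p 0.0566 to 0.0818). Its log2 fold change was 0.28 with limma on log2(TPM + 1). Cebpd fell from 15.5 to 6.72 CPM (log2 fold change -1.21 ± 0.12, adjusted p = 0.000279), Cebpa fell from 6.84 to 3.42 CPM and Nfil3 from 24.2 to 17.4 CPM. The direct dimer partners Atf2 and Atf7 did not pass the test (log2 differences of 0.00 and 0.04).

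Upstream kinases and transcription factors had 27 of 29 tested, with 7 higher (25.9%) and 4 lower (14.8%), and a median of 0.06. The receptor gene Egfr fell from 123 to 46.8 CPM (log2 fold change -1.39 ± 0.06 SE, adjusted p = 6.54e-06), and the kinase genes Rps6ka5 (MSK1) and Mapk12 (p38 gamma) fell by 0.96 and 0.85 on the log2 scale. Mef2c, a muscle transcription factor, rose from 1.90 to 23.3 CPM (log2 fold change 3.61 ± 0.21, adjusted p = 2.23e-05; 2.46 with limma on log2(TPM + 1)), while Rps6ka3 (RSK2) rose by 1.06 and the SRF cofactor gene Mrtfb by 0.44. Mrtfb did not pass with limma on log2(TPM + 1) or log2(TPM + 0.1) (log2 differences of 0.33 and 0.35, adjusted p = 0.0593 and 0.0565). Srf itself, which binds the serum response element of Fos, differed by 0.11 ± 0.06 (adjusted p = 0.22), and the kinase gene Mapk3 by 0.02, without passing the test.

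Feedback phosphatases and regulators, all 20 tested, had 6 higher (30%) and 5 lower (25%), with a median of -0.03. Zfp36, which destabilises messenger RNAs with AU-rich elements, fell from 107 to 28.3 CPM (log2 fold change -1.92 ± 0.10 SE, adjusted p = 1.12e-05). Dusp1, a nuclear MAP kinase phosphatase, fell by 0.85 and Dusp7 by 0.66 on the log2 scale. In contrast, the phosphatase genes Dusp10, Dusp4 and Dusp14 rose by 1.45 ± 0.10, 1.23 ± 0.09 and 1.09 ± 0.17 on that scale.

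Textbook AP-1 target genes had 32 of 38 tested, with 13 lower (40.6%) and 8 higher (25%), and a median log2 fold change of -0.19. Ptgs2, the inducible cyclooxygenase gene, fell from 126 to 30.3 CPM (log2 fold change -2.05 ± 0.07 SE, adjusted p = 2.80e-06), and the growth factor gene Ereg fell from 40.8 to 12.1 CPM (-1.76 ± 0.12). Il11 fell by 1.55 from counts near 1 CPM, and had a log2 fold change of -0.63 with limma on log2(TPM + 1). Plau, the urokinase gene, rose from 61.9 to 169 CPM (log2 fold change 1.45 ± 0.06, adjusted p = 6.07e-06), and Edn1, encoding endothelin, rose by 1.13. Mmp10 rose by 1.93 ± 0.56 from under 1 CPM (adjusted p = 0.0379), and did not pass without any 1 library other than control replicate 2 (adjusted p 0.0563 to 0.114). Its log2 fold change was 2.83 without control replicate 2 and 0.84 with limma on log2(TPM + 1), and without a filter on low counts it did not pass (adjusted p = 0.0537). Targets thus moved in both directions.

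Other serum-response immediate-early genes had 23 of 24 tested, with 11 lower (47.8%) and 4 higher (17.4%), and a median of -0.66. Log2 fold changes were -2.79 for Nr4a1, -2.64 for Ier2 and -1.72 for Ccn1, all lower, and Klf2, Rhob and Maff rose by 0.98, 0.82 and 0.37. Ier2 starts 313 kb from Junb and is among its 67 tested neighbours, whose median log2 fold change was -0.86. Maff also stands among the bZIP genes.

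**Figure D4:**
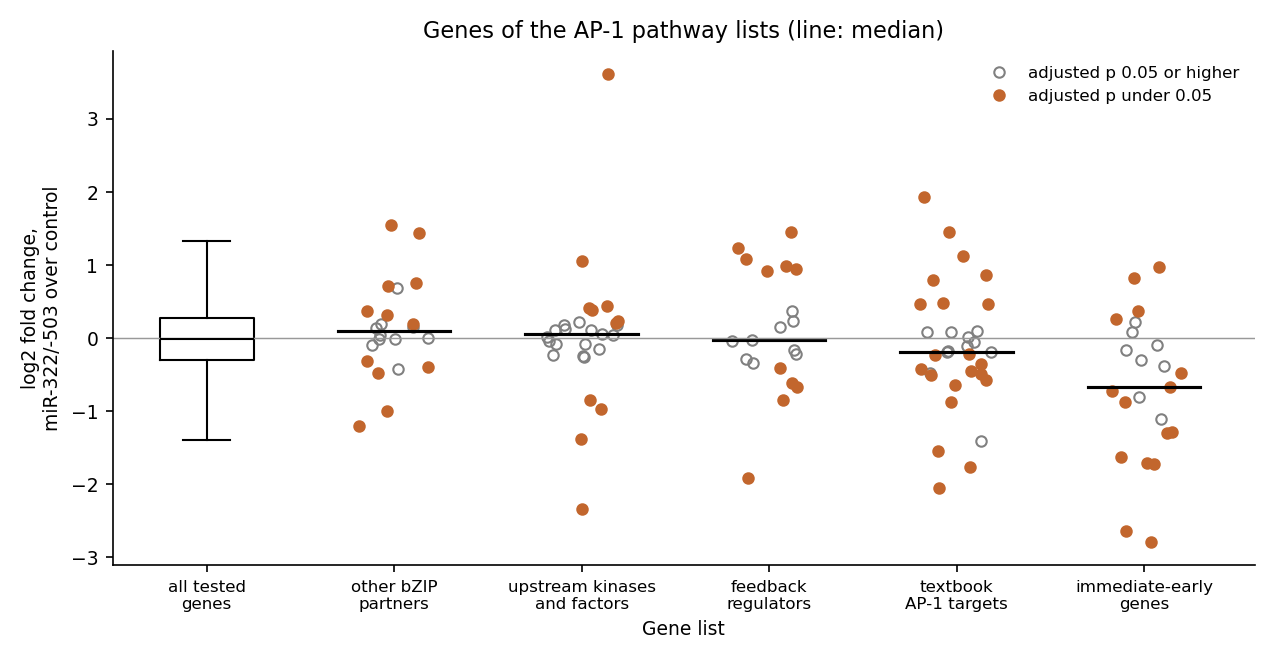
Log2 fold change of miR-322/-503 over control for the tested genes of 5 lists, with 1 point per gene, filled where the adjusted p was under 0.05, and a line at each list median. The box at the left gives the median and quartiles of all 18140 tested genes with whiskers at the 5th and 95th percentiles, and the medians run from 0.09 for other bZIP genes to -0.66 for immediate-early genes.

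By comparing log2 CPM profiles, each centred on its own mean over the 6 libraries, the genes most like Fos were Ggt7, Prelp, Fbxo2, Adcy8 and Arap2, with root mean square differences of 0.117, 0.149, 0.158, 0.171 and 0.192 log2 units among the 13595 genes that averaged 1 CPM or more. Prelp, a matrix proteoglycan gene, had 425 to 457 CPM in the control and 34.1 to 43.2 CPM with miR-322/-503. Within the AP-1 family the closest to Fos were Junb at rank 201 (0.860) and Fosb at rank 226 (0.912), which fell less and more than Fos.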

How the data were processed

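RNA-seq was performed on 3 control and 3 miR-322/-503 libraries. The submitters' notes name Trim Galore for read filtering, HISAT2 for alignment (build GRCm38) and StringTie for quantification. Versions, annotation and strand setting are not given in the sources used here. The deposited matrix holds estimated counts per gene, without normalization. The deposited tables of single libraries give TPM, FPKM and the coverage signal of each gene, computed by the authors. Values of genes listed more than once in a library (7 to 13 genes) were summed. A read pair entered as about 4 counts (75 covered bases per count), which overstates counting precision. Floors of 12 counts cover counting error only.

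Estimated counts were used as deposited. Genes were tested with edgeR 4.0.16 (filterByExpr, TMM, glmQLFit, glmQLFTest, Benjamini-Hochberg adjustment) in R 4.3.3. TMM factors lay between 0.977 and 1.03. The standard error is the log2 fold change divided by the square root of F. CPM was scaled to TMM library sizes. On simulated data, edgeR called 200 of 200 genes with a log2 change of 1.5 and 18 unchanged genes among 18140. DESeq2 1.42.0 called 200 and 12. The simulation gave every gene the same dispersion and changed only well-counted genes, so smaller changes and low counts were not covered.

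The replicates differed by more than sampling noise (chi-square per degree of freedom 14.8 to 21.3). Neighbours were tested genes that start within 1 Mb. Positions of the 10 members matched GENCODE M21, which held 55154 of the 55421 identifiers. Sequences came from RefSeq tables and GENCODE M21. The members and lists were chosen with earlier results of these data known, and the search of 3′ untranslated regions was added after the data were seen. Named genes were the 10 members, the 3 largest rises and falls of each list at an adjusted p under 0.05 and at least 1 CPM in the higher group, and the 5 genes most like Fos. Atf2, Atf7, Srf and Mapk3 were named after their values were seen. Alternatives were DESeq2, RLE and upper-quartile factors, other filters, limma 3.58.1 on log2(TPM + 1) and log2(TPM + 0.1), glmTreat, counts divided by 4, a replicate block, leaving out each library, and FPKM or CPM per kilobase in place of TPM. Protein sequences were not analysed here.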

Additional observations from a re-analysis of the deposited data

How the results depend on the processing

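Fos, Fosb and Junb kept their direction and passed the test under all 16 alternatives. Log2 fold changes ran from -3.91 to -3.39 for Fos, -5.76 to -5.15 for Fosb and -2.11 to -1.96 for Junb. Tested with glmTreat against a log2 fold change of 1, a stricter null hypothesis, 0 members were higher: Fosl1 (0.36), Jun (0.57) and Atf3 (0.65) no longer passed. Over all genes glmTreat left 396 higher and 530 lower, and over the 5 lists 4 higher and 11 lower. With limma on log2(TPM + 1), 391 genes were called higher and 564 lower past a log2 fold change of 1, the pseudocount shrinking low genes. Fosl2 passed with upper-quartile factors (0.17, adjusted p = 0.0477) and with counts divided by 4 (0.16, adjusted p = 0.0475), and the cause was not tested. Leaving out 1 library in turn gave 2 to 3 members higher and 3 lower, and Atf3 ranged from 0.52 to 0.73, with adjusted p up to 0.0705.

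The numbers of the replicates were not taken as pairs. Deviations of libraries with the same number correlated at 0.131, 0.0687 and 0.0451 over 18140 genes, which is across genes. With the replicate number as a block, Jund (0.21, adjusted p = 0.0175) and Jdp2 (-0.16, adjusted p = 0.0360) passed the test. With CPM per kilobase in place of TPM, the Fos group made up 34.6% and 12.02% of the 7 genes in the control and miR-322/-503 groups, Fos and Fosb together 30.9% and 3.75% (35.0% and 5.65% in TPM), and Jun 29.5% and 63.0% of the Jun group. No value of a member changed direction. Among the 30 genes named from the lists by rule, 32 of the alternatives' values no longer passed the test and none reversed. No normalization moved the median log2 fold change of all genes by more than 0.02. Depth limits Batf3, whose counts were at or under the floor in every library.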

Other observations

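The deposited values of Fos imply a different mean transcript length in each group. The mean transcript length that links the counts of Fos to its FPKM, set against single-transcript Jun, was 1814, 1743 and 1746 bases in control replicates 1 to 3 and 1465, 1408 and 1364 bases in miR-322/-503 replicates 1 to 3, without overlap. GENCODE M21 lists 1 coding Fos transcript of 2108 bases and 3 processed transcripts of 631, 795 and 834 bases. For the other 8 tested members, the group means of this length differed by less, though Jun, as the reference, was fixed by the calculation. Fosb had 3686 ± 29.1 and 3657 ± 7.53 bases, and Fosl1 had 1739 ± 39.7 and 1794 ± 47.0 bases (SD, n = 3). This difference was seen after the data were examined, rests on the assignment of reads to transcripts by StringTie, and was not tested. Values per transcript were not analysed here.

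For Jdp2, the deposited coverage column implied 10365 exon bases, 4.83 times the 2148 bases annotated in GENCODE M21, while its FPKM implied 1638 ± 2.65 bases in the control. The coverage of Jdp2 was therefore not used.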
